A study of Mus musculus with 6 samples.

Results

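The variable (V) segments of the immunoglobulin heavy chain were all genes whose symbol begins with Ighv: 185 gene identifiers, with 183 symbols in 16 families, among the 55484 genes of the table. The number between Ighv and the hyphen gave the family, and the deposited locus gave the position. The study measured polyadenylated RNA from the femur of male wild-type C57BL/6 mice on normal chow that lived singly from 6 to 12 weeks of age, when the bone was taken. The 3 sedentary mice had static cages with no wheel, and the 3 wheel-running mice had wheel cages they could run in at will. The labels do not say whether marrow was flushed from the bone.

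A heavy chain V segment is one of many alternative gene pieces from which a B cell builds the antigen-binding end of its antibody. During B cell development in the bone marrow, the RAG recombinase joins a V segment to a D and a J segment, and the joined exon is transcribed with a constant region. A B cell normally expresses a single heavy chain, so RNA from bulk bone sums the V choices of its B cells and of its plasma cells, which hold far more antibody RNA per cell. V segments of a family are near copies of each other.

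The segments lay on chromosome 12 between positions 113572927 and 116010093 (GRCm38), a stretch of 2437 kb, and 183 of the 185 were annotated on the minus strand. Ighv5-8 and Ighv1-13 each had a second identifier annotated on the other strand, listed at 0. The annotation names 113 of the 185 as V genes and 70 as V pseudogenes, which cannot make a working chain. The lowest coordinate is the end next to the D segments. The authors tested 94 members; of the other 91, 71 were listed at 0 FPKM, the fragment count scaled by transcript length and library size, in both groups, and none of the 20 others was above 1.26 FPKM.

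The V exon ends at a cysteine codon and the bases that join to D. The last 45 bases of the longest annotated transcript (GENCODE vM21) are shown for 6 segments that the authors called lower in wheel-running mice, each from another family, with that codon in capitals.
Ighv8-8: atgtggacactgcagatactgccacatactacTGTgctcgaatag
Ighv1-50: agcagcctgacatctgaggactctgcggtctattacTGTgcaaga
Ighv14-4: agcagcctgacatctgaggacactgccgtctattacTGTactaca
Ighv7-1: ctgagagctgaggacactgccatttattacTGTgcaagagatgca
Ighv6-3: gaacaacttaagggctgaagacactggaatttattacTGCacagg
Ighv4-1: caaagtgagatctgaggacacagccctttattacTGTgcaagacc
A tyrosine codon, then a tyrosine or phenylalanine codon, then a cysteine codon stood in a row within these last 45 bases, on the transcript strand, in 108 of 113 V genes and in 37 of 70 pseudogenes. It stood in 91 of the 94 tested members and in 12 of the 12 called lower.

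Because near copies can trade sequencing fragments, the likeness of neighbours bears on every value. The 4 segments of family 14 differed at 16 of 240 positions up to the cysteine codon, in capitals here.
Ighv14-4: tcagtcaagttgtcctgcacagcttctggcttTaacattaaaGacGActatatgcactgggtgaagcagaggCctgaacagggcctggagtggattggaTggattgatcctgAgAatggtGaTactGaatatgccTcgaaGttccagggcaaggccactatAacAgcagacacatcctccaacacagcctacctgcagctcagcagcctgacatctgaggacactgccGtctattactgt
Ighv14-1: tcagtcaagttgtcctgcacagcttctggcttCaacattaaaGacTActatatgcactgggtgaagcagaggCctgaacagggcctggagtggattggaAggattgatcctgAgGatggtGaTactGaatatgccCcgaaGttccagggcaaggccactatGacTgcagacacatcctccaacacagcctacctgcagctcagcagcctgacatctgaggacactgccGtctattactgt
Ighv14-2: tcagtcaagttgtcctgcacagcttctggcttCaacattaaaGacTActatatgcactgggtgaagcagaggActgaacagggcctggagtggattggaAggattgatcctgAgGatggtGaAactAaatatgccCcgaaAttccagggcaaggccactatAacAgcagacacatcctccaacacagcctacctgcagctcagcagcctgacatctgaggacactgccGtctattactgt
Ighv14-3: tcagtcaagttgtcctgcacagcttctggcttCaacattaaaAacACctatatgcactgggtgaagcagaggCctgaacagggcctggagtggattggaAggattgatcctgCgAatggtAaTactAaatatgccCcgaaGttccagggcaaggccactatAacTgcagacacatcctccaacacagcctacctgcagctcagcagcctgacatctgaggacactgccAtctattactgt
Ighv1-50 differed from its nearest copy, Ighv1-69, at 7 of 240 positions.
Ighv1-50: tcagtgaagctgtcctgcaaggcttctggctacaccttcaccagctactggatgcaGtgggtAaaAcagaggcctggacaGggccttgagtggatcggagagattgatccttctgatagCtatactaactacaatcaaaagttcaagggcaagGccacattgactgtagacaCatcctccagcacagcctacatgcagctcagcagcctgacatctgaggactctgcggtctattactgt
Ighv1-69: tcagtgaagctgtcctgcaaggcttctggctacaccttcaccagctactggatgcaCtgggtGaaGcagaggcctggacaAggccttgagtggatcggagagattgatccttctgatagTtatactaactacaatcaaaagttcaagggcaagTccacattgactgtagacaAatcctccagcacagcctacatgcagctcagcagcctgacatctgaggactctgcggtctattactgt
Ighv1-72 and its nearest copy, Ighv1-62-3, differed at 2 of 240.
Ighv1-72: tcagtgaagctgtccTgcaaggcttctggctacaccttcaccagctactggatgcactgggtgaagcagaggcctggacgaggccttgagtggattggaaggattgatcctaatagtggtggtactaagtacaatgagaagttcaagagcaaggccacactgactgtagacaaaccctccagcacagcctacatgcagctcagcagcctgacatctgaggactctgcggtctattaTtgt
Ighv1-62-3: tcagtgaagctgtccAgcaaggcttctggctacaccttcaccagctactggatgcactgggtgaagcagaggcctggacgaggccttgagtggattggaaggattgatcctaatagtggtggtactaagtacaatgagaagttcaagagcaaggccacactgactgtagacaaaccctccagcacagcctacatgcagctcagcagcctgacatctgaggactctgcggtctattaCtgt

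In wheel-running mice, 12 heavy chain V segments fell and none rose at a q-value under 0.05 in the authors' deposited Cuffdiff-type test. The 12 were 12.8% of the 94 tested members, beside 0.497% of the 15508 genes tested that were called lower and 0.445% called higher. Outside the immunoglobulin genes, 0.229% were called lower. At an unadjusted p under 0.05, 33 members, or 35.1% of the 94, were lower, while 2.22% of all tested genes were. Another 5 members, or 5.32%, were higher, near the 3.42% of all tested genes. These 5 were Ighv8-5, Ighv1-54, Ighv1-66, Ighv1-67 and Ighv1-77. With 1 pooled FPKM per group and an interval of unstated level, the spread between mice is unknown, and no call could be retested.

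The strictness of the rule moved few members. At a q-value under 0.01, 11 were called lower, beside 0.393% of all tested genes. At under 0.1, 15 were lower and 0 higher, beside 0.587% and 0.638%. Ighv5-4, Ighv1-19 and Ighv1-82 lay just outside, with q-values of 0.0705, 0.063 and 0.0554. Ighv6-3 lay just inside at 0.0283, and the other 11 shared the smallest q-value in the table, 0.00718. For 10 of the 12 the deposited intervals of the groups did not overlap, which held for a lower call in 0.322% of all tested genes.

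Ighv8-8 was the most abundant V segment in sedentary mice. It stood at 128 FPKM (interval 90.6 to 166) there and at 18.3 FPKM (8.96 to 27.7) in wheel-running mice, 6.99-fold lower, and its rank by FPKM went from 1 to 15. It lies at chr12:115294062-115294504, and its share of all V segment FPKM was 8.33% in sedentary and 2.21% in wheel-running mice. Its nearest copy, Ighv8-11, was listed at 0 and 0.238 FPKM.

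Ighv14-4 fell by the largest factor among the called segments, from 53.1 FPKM (33.1 to 73.1) to 6.32 FPKM (1.29 to 11.35), or 8.40-fold. Its rank went from 5 to 40. Ighv1-50 fell from 57.4 FPKM (38.3 to 76.4) to 7.68 FPKM (2.93 to 12.4), and Ighv1-12 from 28.9 FPKM (15.8 to 42.0) to 4.36 FPKM (0 to 8.78). For these 3 the intervals of the groups lay apart.

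Ighv1-80, 2339 kb from the D-proximal end, fell from 79.6 FPKM (54.1 to 105) to 19.5 FPKM (9.38 to 29.6). Ighv7-1, a segment known from antibodies that bind phosphorylcholine, fell from 27.9 FPKM (14.75 to 41.0) to 6.11 FPKM (1.69 to 10.5). Ighv4-1 fell from 18.5 FPKM (10.5 to 26.6) to 5.97 FPKM (2.18 to 9.76). Ighv7-1 was the called segment nearest to the D segments, at 323 kb.

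The 5 other calls had log2 folds (wheel running over sedentary, on log2(FPKM + 0.1)) between -1.39 and -1.13. Ighv1-26 fell from 108 FPKM (76.8 to 139) to 41.1 FPKM (25.05 to 57.2) and was second in both groups. Ighv1-72, the germline segment known from C57BL/6 antibodies to a nitrophenyl hapten, fell from 43.9 to 17.6 FPKM, and Ighv1-78 from 45.6 to 18.6 FPKM. Ighv14-3 fell from 39.8 FPKM (24.95 to 54.6) to 18.1 FPKM (9.90 to 26.3) and Ighv6-3 from 29.8 FPKM (16.04 to 43.6) to 12.7 FPKM (5.42 to 19.9). In these last 2 the intervals of the groups overlapped.

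**Figure D1:**
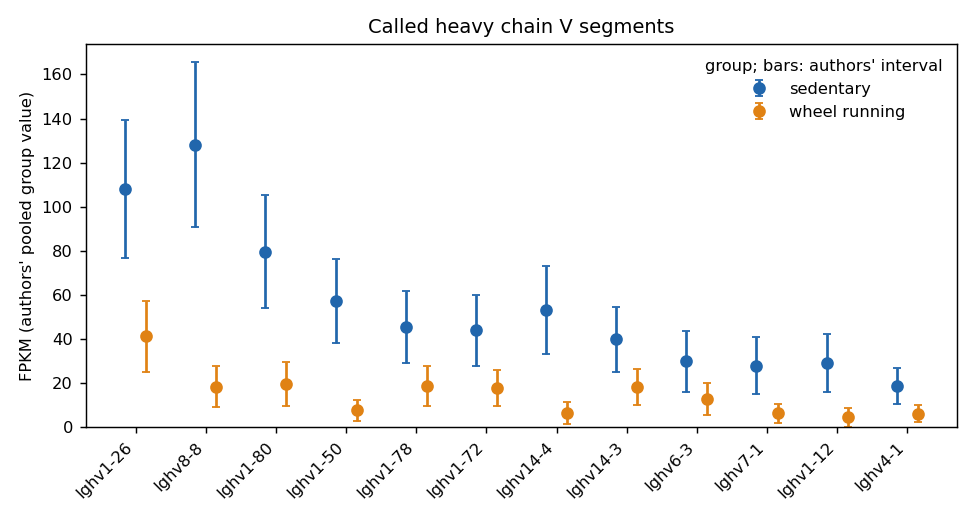
FPKM of the 12 V segments called lower, with the authors' interval as the error bar, in sedentary and wheel-running groups (1 pooled value per group of 3 mice). Ighv8-8 has the highest sedentary value, 128 FPKM, and the intervals overlap for Ighv14-3 and Ighv6-3 alone.

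Most tested segments that missed the threshold also had the lower value in wheel-running mice. Over all 94, 72 had the lower value there and 22 the higher, which is 76.6% lower, beside 51.8% of all tested genes. Their median log2 fold was -0.63 (quartiles -1.30 and -0.05), beside -0.0067 over all tested genes (quartiles -0.11 and 0.12). Among the 82 uncalled tested segments, 60 were lower and the median was -0.43. These shares are descriptions, since the segments share the same libraries.

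**Figure D2:**
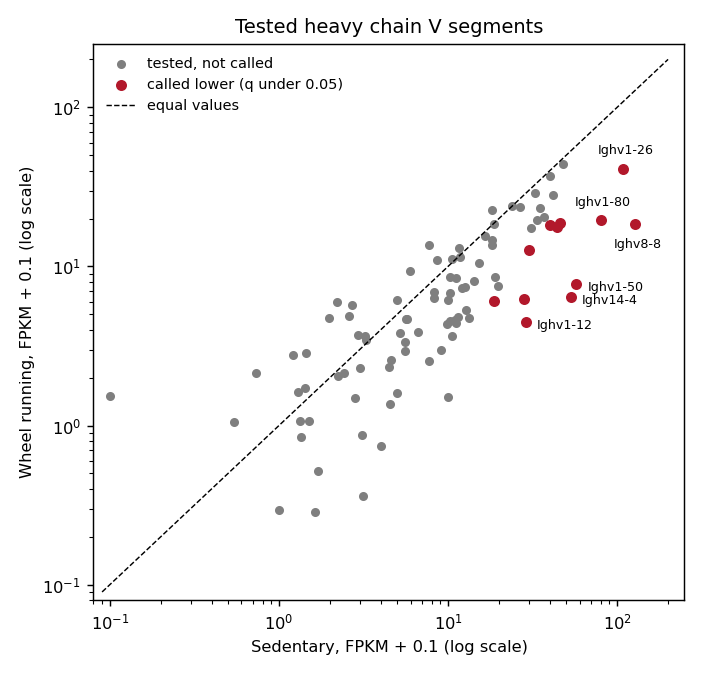
FPKM + 0.1 of the 94 tested V segments in sedentary (x axis) and wheel-running mice (y axis), both on log scales, with the line of equal values. Of the points, 72 lie on the side of the lower wheel-running value, and the 12 called segments are in red.

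The summed FPKM of all 185 segments was 1537 in sedentary and 828 in wheel-running mice, 1.86-fold lower. The 12 called segments went from 661 to 176 FPKM, or from 43.0% to 21.3% of the sum. The other 173 went from 877 to 651 FPKM, 1.35-fold lower. In bulk bone, fewer B lineage cells and less antibody RNA per cell cannot be told apart.

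Several abundant segments had no call. Ighv1-55 stood at 47.8 and 44.0 FPKM and was first in wheel-running mice, where no segment was higher. Ighv9-3 stood at 40.0 and 36.8 FPKM. Ighv3-6 stood at 41.5 and 27.9 FPKM, with an unadjusted p of 0.0235 and a q-value of 0.671 in the authors' deposited table. Chosen after their values were seen, Ighv1-18 stood at 23.8 and 23.9 FPKM, Ighv1-53 at 32.7 and 28.8 FPKM, and Ighv1-7 at 18.04 and 22.6 FPKM. None of these 6 passed the test.

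The largest uncalled log2 folds in either direction, among segments reaching 1 FPKM in a group, belonged to segments with a mean under 6 FPKM. Ighv1-36 stood at 3.05 and 0.262 FPKM, Ighv1-62-2 at 9.96 and 1.42, Ighv12-3 at 1.53 and 0.188 and Ighv2-6 at 3.92 and 0.645. In the other direction, Ighv1-11 stood at 0.634 FPKM in sedentary and 2.03 in wheel-running mice, Ighv1-77 at 2.10 and 5.92, and Ighv8-5 at 1.88 and 4.64. Ighv1-67 was listed at 0 in sedentary and at 1.44 FPKM in wheel-running mice, with a q-value of 0.348.

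The calls lay among the abundant segments. Of the 20 tested members with a mean of at least 20 FPKM, 9 were called, of the 40 between 5 and 20 FPKM 3 were, and of the 29 from 1 to 5 FPKM and the 5 below 1 FPKM none was. The lowest mean of a called segment was 12.2 FPKM. Median log2 folds were -0.84 in the class of at least 20 FPKM, -0.70 from 5 to 20 FPKM and -0.32 from 1 to 5 FPKM. The 5 segments below 1 FPKM had a median of -0.66. For the 35 segments with a mean of at least 10 FPKM, the authors' interval spanned a median of 44.8% of the value to either side in sedentary and 51.9% in wheel-running mice.

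The shares of the V segment signal were more even in wheel-running mice, with 1 pooled value per group. The top 10 held 42.0% of the sum in sedentary and 35.3% in wheel-running mice, and 4 segments were in both top 10 lists. The effective number of segments, taken as the inverse Simpson index of the FPKM shares, was 35.04 and 45.9. It took 14 segments in sedentary and 17 in wheel-running mice to reach 50% of the sum. Fewer segments reached a given level in wheel-running mice. Segments of at least 1 FPKM numbered 92 and 84, of at least 10 FPKM 46 and 28, and of at least 20 FPKM 21 and 10. Those above 0 numbered 108 and 109. The shares include the 12 called segments, picked for their lower value, which went from 43.0% to 21.3% of the sum. Across the 94 tested segments the values of the groups had a Spearman rho of 0.84, a description over genes that share libraries.

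**Figure D3:**
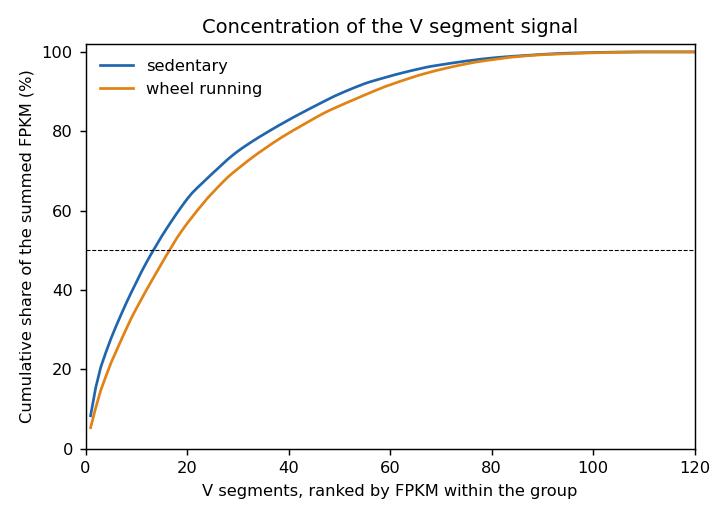
Cumulative share of the summed V segment FPKM (%) against the number of segments, ranked within each group from the most abundant. The sedentary curve is the higher one over the first 20 segments and passes 50% at 14 segments, against 17.

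By family, calls were found in 6 of 16: family 1 held 6, family 14 held 2, and families 4, 6, 7 and 8 held 1 each. Family 1, the most numerous with 93 members, had 49 tested, of which 35 were lower, and its sum went from 867 to 492 FPKM, 1.76-fold lower. The sum of family 8 went from 166 to 45.5 FPKM, 3.65-fold lower, and most of that difference was Ighv8-8. Without it the family stood at 38.3 and 27.2 FPKM and the median log2 fold of its tested members turned from -0.32 to 0.33. The other abundant member, Ighv8-12, stood at 33.5 and 19.4 FPKM, uncalled.

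The 4 segments of family 14, shown above, had unlike values. Ighv14-4 and Ighv14-3 were called lower, Ighv14-2 stood at 18.1 and 13.5 FPKM, and Ighv14-1 stood at 2.83 and 3.60 FPKM. The family's sum went from 114 to 41.5 FPKM, and without Ighv14-4 from 60.7 to 35.1 FPKM.

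Families 2, 3 and 9 held no call, though every tested member was lower: 8 of 8, 4 of 4 and 4 of 4. Their median log2 folds were -1.09, -0.43 and -0.83. The sums of these families went from 66.8 to 45.6, from 52.9 to 35.3 and from 61.2 to 47.4 FPKM. Each sum fell by a smaller factor than the 1.86-fold of all V segments. The few tested members of family 10 (2 of 2) and of families 12, 13 and 15 (1 of 1 each) were lower as well, with no call. Ighv2-9-1, the most abundant in family 2, stood at 26.6 and 23.6 FPKM, and Ighv9-3, the most abundant in family 9, is given above. In family 5, which shares the D-proximal end with family 2, 5 of 9 were lower, with a median of -0.09 that was 0.08 without Ighv5-17. Ighv5-2, the tested segment nearest to the D segments and one often rearranged in early B precursors, stood at 1.103 and 2.66 FPKM, uncalled. Ighv11-2, known from B-1 cell antibodies to phosphatidylcholine, stood at 10.5 and 11.1 FPKM.

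**Figure D4:**
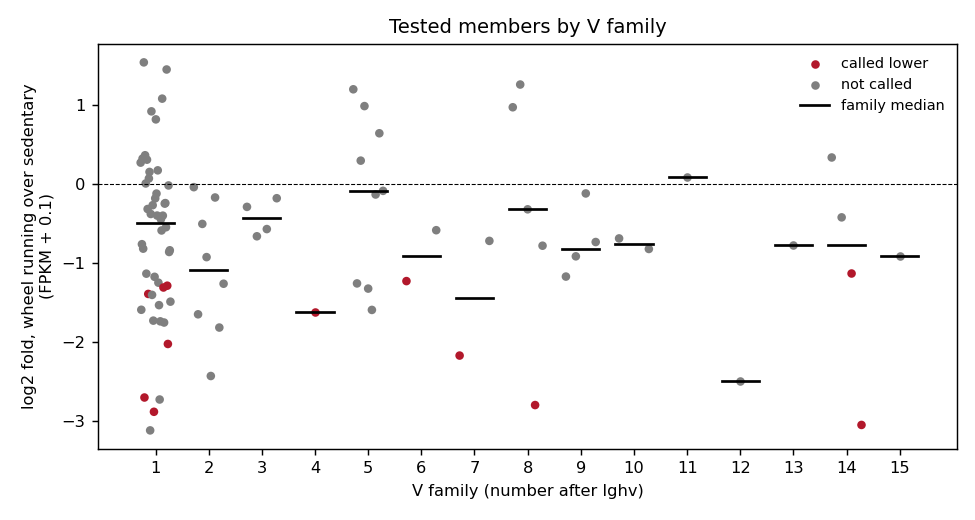
Log2 fold of each tested V segment (wheel running over sedentary, FPKM + 0.1) by family, with called segments in red. Ighv1-67, listed at 0 in sedentary mice, is left out. Families 2, 3 and 9 have every tested member below 0 and no call. The same holds for families 10, 12, 13 and 15, with 1 or 2 tested members each.

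Along the locus, calls were found from 323 to 2339 kb. Ighv7-1 is the first call from the D-proximal end, so the 17 tested segments nearer to the D segments hold none by definition. Among those 17, Ighv5-4, Ighv2-3, Ighv5-12, Ighv5-9-1 and Ighv2-9 were lower at an unadjusted p under 0.05 in the authors' test, and none was higher. The 185 members, ranked by start, were split in 3 equal stretches. The D-proximal one had 32 tested segments with 4 calls, the middle one 28 with 3, and the D-distal one 34 with 5. Their median log2 folds were -0.69, -0.64 and -0.57. Of their tested segments, 26, 18 and 28 had the lower value in wheel-running mice. The sums went from 426 to 249 FPKM, from 409 to 237 FPKM and from 703 to 341 FPKM. The last of these is 2.06-fold lower, and 1.78-fold lower without Ighv8-8. In steps of 500 kb from the D-proximal end the calls numbered 3, 2, 2, 2 and 3. Tested segments lower in these steps were 18 of 24, 18 of 21, 10 of 18, 13 of 15 and 13 of 16. The median log2 folds of the steps were -0.46, -0.73, -0.29, -0.59 and -0.66. The segments at the ends, Ighv5-1 and Ighv1-86, are pseudogenes listed at 0. No test of a difference between stretches was possible.

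**Figure D5:**
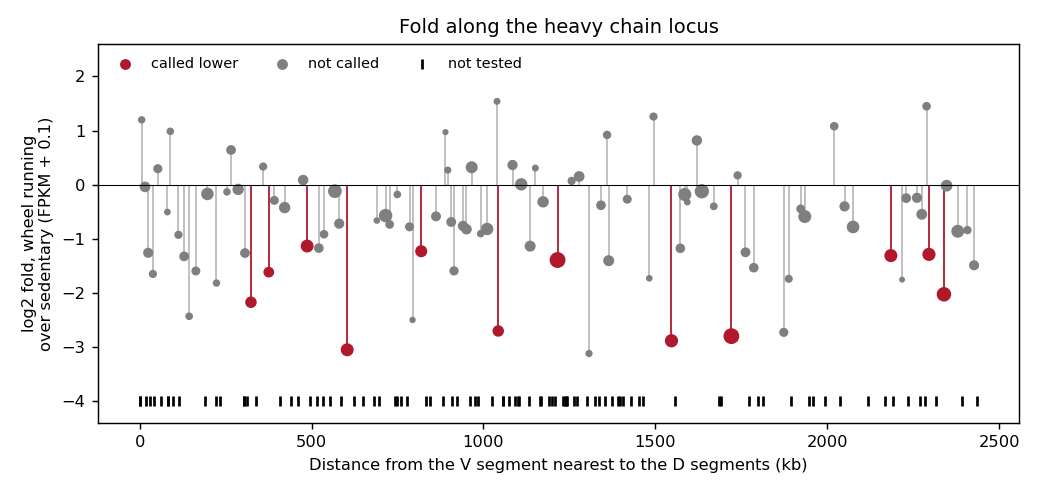
Log2 fold of each tested V segment (FPKM + 0.1) against its distance in kb from the D-proximal end, with point size by mean FPKM, called segments in red and untested segments as ticks. Ighv1-67 is left out. Red points occur in each 500 kb step.

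Pseudogenes gave little of the signal. Of the 70, 58 were listed at 0 in both groups and 3 were tested, with no call. Ighv1-41 stood at 2.49 and 4.80 FPKM, Ighv1-2 at 1.34 and 1.63 FPKM and Ighv1-73 at 0.897 and 0.196 FPKM. Pseudogenes made 0.466% of the V segment sum in sedentary and 1.102% in wheel-running mice.

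Likeness between segments was read beside the calls. Each transcript was matched to its nearest other V transcript, with a median identity of 93.6%. Among 76 members with a copy at least 95% identical, 49 were tested and 8 called, and their sum went from 1050 to 514 FPKM. Among the 109 others, 45 were tested and 4 called, Ighv7-1, Ighv6-3, Ighv1-12 and Ighv1-78, and the sum went from 488 to 314 FPKM. Ighv1-26 is 96.9% identical to Ighv1-18, which was nearly equal in the groups, and Ighv1-72 is 99.2% identical to Ighv1-62-3, which stood at 4.46 and 1.26 FPKM. Ighv1-62-2 is 99.7% identical to Ighv1-71, which was listed at 0. The part of traded fragments in these values was not tested.

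Light chain V segments, whose products pair with the heavy chain, showed the same direction. Of 88 tested kappa segments (Igkv) 21, or 23.9%, were called lower and 0 higher. The share called lower was 12.8% of tested heavy chain segments and 0.497% of all tested genes. Kappa segments had a median log2 fold of -0.95, beside -0.63, and a sum of 2261 and 1119 FPKM, 2.02-fold lower. Of 3 lambda segments (Iglv) 2 were called lower, with a sum of 372 and 122 FPKM. Whether heavy and light chain folds differ was not tested.

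The heavy chain constant genes, which are spliced to the V exon and set the antibody class, held 4 lower calls and 1 higher call among 7 tested. Ighm fell from 1001 to 385 FPKM, Ighg3 from 18.4 to 5.08, Ighg2b from 32.8 to 19.1 and Ighg2c from 23.2 to 2.86, while Igha rose from 273 to 406 FPKM. Ighd stood at 42.5 in both groups and Ighg1 at 6.78 and 7.57 FPKM, uncalled. Ighe was listed at 0.

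Genes that make or use V segments held few calls. Of 12 V(D)J recombination genes none was called (median log2 fold -0.14): Hmgb2 stood at 391 and 360 FPKM and Hmgb1 at 118 and 109. Rag1, the recombinase subunit, stood at 15.8 and 12.3 FPKM (q-value 0.156). None of 9 progenitor B genes (median -0.08; Vpreb3 68.2 and 60.0, Igll1 26.95 and 26.9 FPKM) or of 10 mature B genes (median -0.13; Cd74 530 and 507, Cd79a 101 and 94.2 FPKM) was called. Of 11 plasma cell genes 10 had the lower value in wheel-running mice (median -0.29) and 1 was called, Jchain, which links the units of secreted IgM and IgA and fell from 169 to 104 FPKM. Xbp1 stood at 93.8 and 83.0 FPKM and Tnfrsf13b at 25.6 and 23.0. Of the others, chosen after their values were seen, Mzb1 stood at 28.4 and 19.6 FPKM, Irf4 at 13.5 and 10.15 FPKM (q-value 0.0857) and Derl3 at 3.44 and 1.99 FPKM, all uncalled. The plasma cell gene with the higher value in wheel-running mice was Sdc1, at 19.96 and 21.07 FPKM. Prdm1 stood at 2.64 and 2.44 FPKM, and both were uncalled. Lower values in wheel-running mice were also found in 9 of 12 recombination, 9 of 9 progenitor B and 9 of 10 mature B genes. They were found in 7 of 9 transcription factor genes and in 2 of 5 tested genes of class switching and hypermutation. None of 9 transcription factor genes of the V locus was called (median -0.07), with Spi1 at 95.2 and 89.2 FPKM and Ctcf, which organises the loops of the locus, at 72.9 and 67.2 FPKM. The 5 tested genes of class switching and hypermutation held no call (median 0.0088), and Apex1, a base excision repair enzyme, stood at 39.9 and 40.4 FPKM and Msh6, a mismatch repair gene, at 24.3 and 24.5.

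Marker lists of other cells in the femur were read beside these. The 7 neutrophil genes were all lower and uncalled (median -0.17; S100a9 20406 and 17114 FPKM, S100a8 20105 and 16793). The 7 T and NK cell genes had a median of 0.01 with no call (Nkg7 60.2 and 54.2 FPKM, Trac 4.80 and 4.83). Of 7 osteocyte and osteoblast genes 2 rose (median 0.25), Sost from 47.4 to 66.2 FPKM and Mepe from 98.4 to 137, while Ibsp (562 and 666 FPKM) and Bglap (3157 and 3184 FPKM) were uncalled. Of 5 skeletal muscle genes 2 rose (median 0.35), Myh1 from 28.6 to 44.1 FPKM and Myh2 from 31.1 to 45.9, while Tnnt3 stood at 366 and 445 FPKM and Acta1 at 278 and 336, uncalled. Genes of bone, marrow and skeletal muscle were thus all present in RNA labelled as femoral bone. The part of tissue make-up in the V segment values was not tested.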

How the data were processed

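Both deposited tables held 55484 genes. Cufflinks 2.2.1, HISAT2 2.2.1, Trimmomatic 0.39, SAMtools 1.10 and build GRCm38 are listed without roles in the submitters' processing notes, and column names follow Cuffdiff. Per the file headers, the authors gave 1 FPKM per group with an interval, a log2 fold, a test statistic (score), a p-value and a q-value. The authors' treatment of fragments matching several genes, their length correction for these short transcripts and the sequencing depth have no statement in the labels or headers (not given in the sources used here). There were 0 columns of single mice, so the authors' q-value under 0.05 was the call, and q matched a Benjamini-Hochberg adjustment over tested genes to within 5.21e-07. Replicates are separate mice per the design text.

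Log2 folds were recomputed with a pseudocount of 0.1 (Python 3.11.15, pandas 2.3.3), which understates low genes. The code was tested on simulated data with folds planted without noise, which checks the arithmetic alone. Identity was computed with edlib 1.3.9.post1 on GENCODE transcripts, placing the shorter in the longer. The members, lists and rules were chosen with earlier results of these data known. Named were called members, the 8 highest means, the 4 largest folds upward and the 4 largest uncalled downward among those reaching 1 FPKM, both ends of the locus, constant genes, and, of other lists, called genes and the 2 most expressed others; the rest were chosen after values were seen. Promoter octamers and recombination signals were not analysed here.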

Additional observations from a re-analysis of the deposited data

How the results depend on the processing

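At q-values under 0.01 and 0.1 the 12 lower calls became 11 and 15, and with separate intervals 10. Limits to 1 FPKM or more and to members other than pseudogenes left 12. They could not do otherwise, since all 12 are V genes with a mean of at least 12.2 FPKM. Recomputing q also left 12, since it matched the deposited q to within 5.21e-07. Limited to segments whose nearest copy is under 95% identical there were 4 among 45 tested, or 8.89%, beside 12.8% of all 94. Higher calls stayed at 0 in each of these, though only the q-value under 0.1 could have added any. The median log2 fold of -0.63 was -0.59 scaled to the same total, with or without immunoglobulin genes, -0.62 scaled to the same median, -0.57 without near copies, -0.66 without pseudogenes, -0.59 without Ighv1-26, -0.64 and -0.56 with pseudocounts of 0.01 and 1, -0.58 over all members above 0 and -0.43 without the called members, an alternative added after seeing the data. The log2 ratio of sums, -0.89, was -0.85 and -0.86 for the scalings to the same total (without and with removal of immunoglobulin genes), -0.90 at 1 FPKM or more, -0.64 without near copies, -0.90 without pseudogenes, -0.86 without Ighv1-26 and -0.43 without the called members. Of 515 recomputed values of single segments, families and stretches, 3 changed sign: Ighv2-2 became 0.0021 scaled to the same total, and Ighv1-81 became 0.024 with and 0.015 without immunoglobulin genes in the total. No paired analysis was possible because no column belongs to a single mouse. For the same reason no mouse could be left out and DESeq2 and edgeR were not run.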

Other observations

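Within the heavy chain locus, the D and J segments and the genes lying between V segments were listed at 0 or at low values. All 4 J and 20 D segments were listed at 0 in both groups. Of 40 genes other than V segments between the first and the last V segment, 30 were listed at 0 and 3 were tested, with none called. Gm30948 stood at 1.54 FPKM in sedentary and 1.61 in wheel-running mice, Gm7019 at 1.08 and 1.30, and Gm9517 at 1.58 and 1.70. Of the 113 V genes, 11 were listed at 0 in both groups, and 4 of these 11 have a copy at least 95% identical.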
